A study of Rattus norvegicus with 30 samples.

Results

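The genes described here are the 6 whose products carry out the steps of gluconeogenesis that are not shared with glycolysis: *Pc*, *Pck1*, *Pck2*, *Fbp1*, *G6pc* and *Slc37a4*. They were found by gene symbol in the count table of rat kidney tissue, where they take up 7 of 32545 rows because 2 rows carry the symbol *G6pc*. All 7 rows passed the filter on low counts in every comparison.

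Gluconeogenesis makes glucose from lactate, amino acids and glycerol. The proximal tubule of the renal cortex is, with the liver, one of the few places where it runs to free glucose that can be released to the blood. Pyruvate carboxylase (*Pc*) makes oxaloacetate in the mitochondrion, and phosphoenolpyruvate carboxykinase turns oxaloacetate into phosphoenolpyruvate in the cytosol (*Pck1*) or in the mitochondrion (*Pck2*). Fructose-1,6-bisphosphatase (*Fbp1*) and glucose-6-phosphatase (*G6pc*) reverse the phosphofructokinase and hexokinase steps. The transporter encoded by *Slc37a4* brings glucose-6-phosphate into the endoplasmic reticulum, where glucose-6-phosphatase works.

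The libraries were made from the cortex (Cx) and the outer medulla (OM) of the right kidney of male Sprague-Dawley rats, a normal outbred strain without a transgene. Rats ate 0.4% NaCl (LS), or 4.0% NaCl for 14 d (HS14) or 21 d (HS21) after a switch from that diet. Each of the 6 groups of tissue and diet holds 5 libraries, which makes 30 in all. No source used here ties an age to these groups. Each library is a piece of whole tissue, so that fewer cells of a type and less RNA per cell cannot be told apart in any value below.

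Levels are given as CPM, which are counts relative to the library size after TMM scaling over the 30 libraries, and per kilobase of gene length wherever 2 genes are compared. Changes are log2 ratios ± SE from edgeR's quasi-likelihood test, and a gene was called raised or lowered at a Benjamini-Hochberg adjusted *P* under 0.05 over all genes tested. Counts on genes per library ranged from 5408126 to 21842843, and OM HS14 replicate 10 had the fewest. The mitochondrial share of the counts lay between 11% and 18.1%. OM LS replicate 2 had summed proximal tubule markers of 20581 CPM, against 1509 to 9452 in the other 4 OM LS libraries. Ratios of the members that these 2 libraries move most are also given without them.

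In the Rnor_6.0 coordinates of the deposited table, *Pck1* (ENSRNOG00000028616) lies at chr3:171213936-171219871, *Pck2* (ENSRNOG00000018536) at chr15:34216833-34224193 and *Pc* (ENSRNOG00000019372) at chr1:219759183-219859848, all on the plus strand. *Slc37a4* (ENSRNOG00000011361) lies at chr8:48716939-48723024 on the plus strand, and *Fbp1* (ENSRNOG00000017597) at chr17:396180-417480 on the minus strand. The first *G6pc* row (ENSRNOG00000051344) spans chr10:89236256-89244041 and the second (ENSRNOG00000051171) chr10:89285855-89296213, both on the plus strand. In the table the order of the genes is *Becn1*, the first *G6pc* row, *Aoc3*, the second *G6pc* row and *Aarsd1*. RefSeq's GRCr8 annotation lists *Becn1*, *Psme3*, *Aoc3*, *G6pc1* and *Aarsd1* in that order, gives *Psme3* as a synonym of *G6pc1* as well, and the table has no row named *Psme3*. The symbol of the first row is therefore uncertain, and both rows are reported.

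RefSeq promoter windows (GRCr8, 250 bases before to 50 bases after the start site) were matched for 5 of the 6 symbols. 3 of them are shown. They belong to the most abundant transcript of the pathway (*Pck1*), to its isoenzyme, which moved the other way (*Pck2*), and to the enzyme of the last step (*G6pc1*). Capitals mark matches, on either strand, to 5 short motifs: the cAMP response element half-site TGACG, the nuclear receptor half-site AGGTCA, the HNF1 half-site GTTAAT, the insulin response core TGTTTTG and the TATA box TATAAA. No matches overlap in these windows.
*Pck1*, plus strand of chr3:182348322-182348621: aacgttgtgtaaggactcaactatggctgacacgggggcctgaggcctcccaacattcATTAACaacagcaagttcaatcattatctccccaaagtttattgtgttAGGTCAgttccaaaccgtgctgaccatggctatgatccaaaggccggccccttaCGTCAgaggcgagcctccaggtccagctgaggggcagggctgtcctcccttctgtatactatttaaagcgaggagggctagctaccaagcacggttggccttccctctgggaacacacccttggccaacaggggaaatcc
*G6pc1*, plus strand of chr10:86807409-86807708: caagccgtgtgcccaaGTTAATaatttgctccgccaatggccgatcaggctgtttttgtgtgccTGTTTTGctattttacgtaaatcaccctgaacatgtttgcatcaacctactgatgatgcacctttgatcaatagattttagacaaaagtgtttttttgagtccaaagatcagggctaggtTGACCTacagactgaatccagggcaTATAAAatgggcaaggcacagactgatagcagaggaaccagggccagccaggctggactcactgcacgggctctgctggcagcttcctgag
*Pck2*, plus strand of chr15:32997603-32997902: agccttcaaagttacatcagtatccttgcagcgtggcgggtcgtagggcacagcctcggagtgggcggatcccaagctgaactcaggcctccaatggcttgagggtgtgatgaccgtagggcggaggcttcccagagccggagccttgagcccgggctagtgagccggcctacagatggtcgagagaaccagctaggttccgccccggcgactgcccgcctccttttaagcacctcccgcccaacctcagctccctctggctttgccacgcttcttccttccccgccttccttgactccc

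The *Pck1* window holds 1 match each to the HNF1 half-site (first base at -192 from the start site), the nuclear receptor half-site (at -144) and the cAMP response element half-site (at -90). The *G6pc1* window holds 1 match each to the HNF1 half-site, the insulin response core, the nuclear receptor half-site and the TATA box. No match to any of the 5 stands in the *Pck2* or the *Fbp1* window. *Slc37a4* has 2 overlapping windows, with 1 and 2 matches to the cAMP response element half-site, one of them the same site. Of all 33469 windows in the table, 21.2% hold TGACG, 16.2% AGGTCA, 7.45% GTTAAT, 6.28% TGTTTTG and 14.2% TATAAA. These matches are letters in the window only, and binding was not measured.

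On the LS diet, *Pck1* was by far the most abundant member in the Cx. Per kilobase of gene length it reached 4014 ± 589 CPM (SD, n = 5), rank 5 among 22280 nuclear protein-coding genes. *Fbp1* followed with 1027 ± 26.9 CPM per kilobase and rank 31. *Slc37a4* (234 ± 9.75), *Pc* (209 ± 13.8) and the second *G6pc* row (166 ± 38.1) came next, and the ranges of neighbours in this order overlapped among these 3. The first *G6pc* row (22.3 ± 0.94) and *Pck2* (11.3 ± 1.52) were lowest and did not overlap with each other or with the rest. In the OM on LS the means ranked from *Pck1* (300.3 ± 364) and *Fbp1* (257 ± 233) through *Pc* (68.3 ± 52.6), *Slc37a4* (66.1 ± 40.5), the first *G6pc* row (19.9 ± 0.7) and *Pck2* (14.6 ± 1.07) to the second *G6pc* row (13.4 ± 10.5). The spread between OM libraries was wider than most of these steps. Without OM LS replicate 2 the means of *Fbp1* (161 ± 104, n = 4) and *Pck1* (144 ± 120) changed places, as did those of *Slc37a4* (49.2 ± 16.9) and *Pc* (46.0 ± 19.0).

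**Figure D1:**
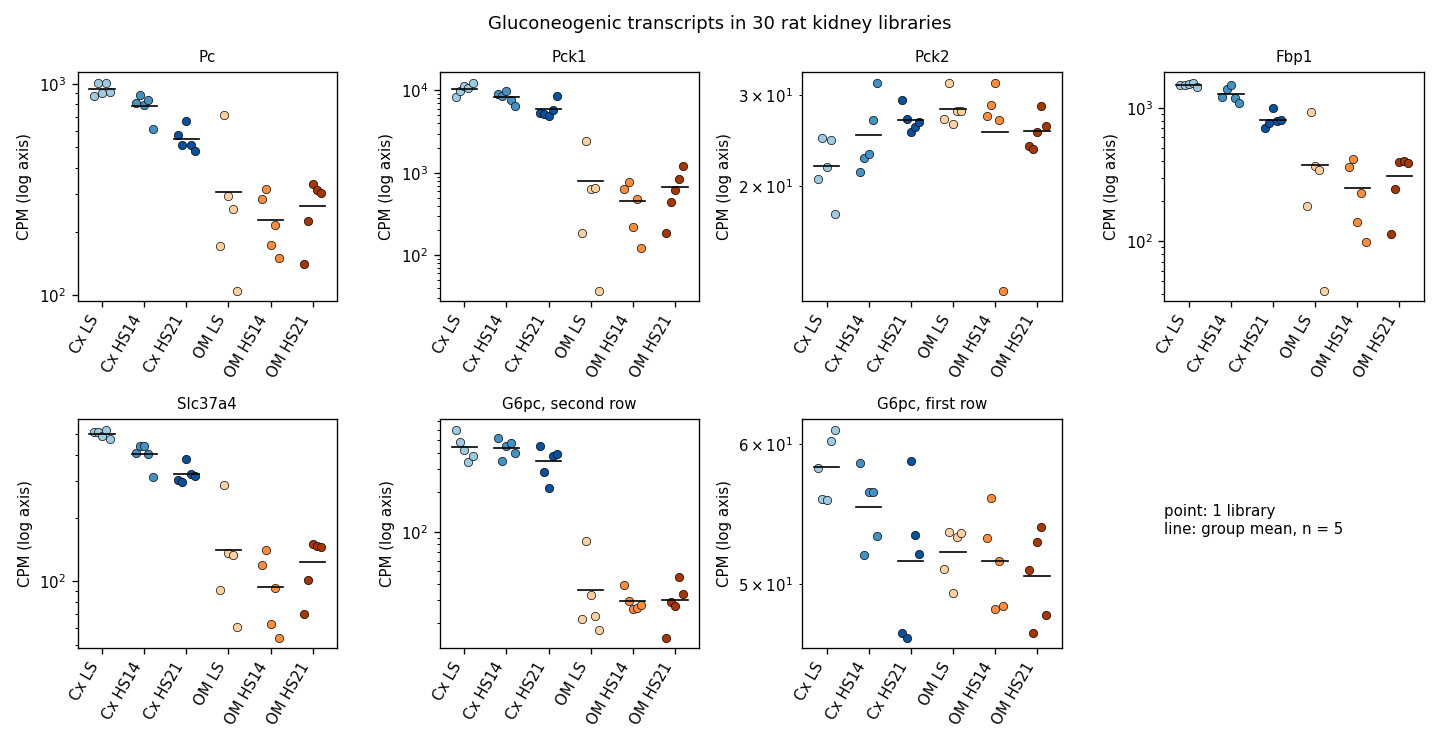
CPM of the 7 rows in each library (points) with the group mean (lines) on log axes, for LS, HS14 and HS21 in Cx and OM, n = 5 per group. *Pc*, *Pck1*, *Fbp1* and *Slc37a4* step down across the Cx groups and scatter widely in the OM, while *Pck2* is lowest in Cx LS.

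The first comparison asks what 21 d of the HS diet did to these transcripts in the Cx. *Pck1*, *Fbp1*, *Pc* and *Slc37a4* fell to between 0.547 and 0.645 times their LS level, and *Pck2* rose to 1.23 times. The 2 *G6pc* rows were not called. That is 5 of 7 rows, beside 39.4% of the 14299 genes tested in this comparison. The levels of 4 of the 7 rows did not overlap between the diets, beside 26.6% of all genes tested. The median log2 ratio of the 7 rows was -0.63, and that of all genes tested was 0.0046.

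*Pc*, which commits pyruvate to the pathway, read 874, 1005, 906, 1010.3 and 912 CPM in the 5 Cx LS libraries. At HS21 it read 572, 512, 668, 511 and 479 CPM. No HS21 library reached the lowest LS library, and the log2 ratio was -0.78 ± 0.09 (edgeR, adjusted *P* = 7.89e-05).

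*Pck1*, the cytosolic carboxykinase, stood at 8344, 9813, 11436, 10633 and 12380.0 CPM on LS. Its HS21 libraries held 5324, 5215, 4900.4, 5860.1 and 8452 CPM. The last of these, replicate 15, lay above the lowest LS library, so the groups overlapped by that 1 library. The log2 ratio was -0.82 ± 0.15 (edgeR, adjusted *P* = 0.00155).

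*Pck2*, the mitochondrial carboxykinase, was scarce and went up. On LS it measured 20.6, 24.7, 21.7, 24.5 and 17.7 CPM and at HS21 29.3, 26.9, 25.4, 26.0 and 26.6 CPM. All 5 HS21 libraries lay above all 5 LS libraries, with a log2 ratio of 0.30 ± 0.09 (edgeR, adjusted *P* = 0.0238). Without Cx LS replicate 1 the ratio was 0.28 and the adjusted *P* was 0.0563. *Pck2* made up 0.194% to 0.341% of the summed *Pck1* and *Pck2* transcripts per kilobase on LS and 0.426% to 0.744% at HS21, ranges that do not overlap.

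*Fbp1* had the narrowest LS group relative to its level, with 1483, 1472, 1512, 1540.4 and 1438 CPM. At HS21 its libraries held 702, 763, 1001, 803 and 814 CPM. The groups did not overlap, and the log2 ratio of -0.87 ± 0.08 (edgeR, adjusted *P* = 3.07e-05) was the lowest of the members.

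*Slc37a4*, the glucose-6-phosphate transporter, read 512, 511, 488, 525 and 473 CPM on LS. It read 304, 296, 379, 324 and 318 CPM at HS21. Again no library of the 2 groups overlapped, and the log2 ratio was -0.63 ± 0.07 (edgeR, adjusted *P* = 5.64e-05).

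The second *G6pc* row varied more between libraries than the other abundant members. Its LS libraries held 602, 487, 423, 342 and 377 CPM and its HS21 libraries 452, 284, 217, 378 and 392 CPM. The groups overlapped, and the log2 ratio was -0.38 ± 0.20 (95% interval -0.77 to 0.01, edgeR, adjusted *P* = 0.156), so a fall as large as that of *Slc37a4* was not outside the interval. For the first *G6pc* row the LS values were 58.2, 55.8, 55.8, 60.3 and 61.1 CPM and the HS21 values 46.9, 46.6, 58.7, 53.3 and 52.0 CPM. They overlapped too, with a log2 ratio of -0.18 ± 0.07 (edgeR, adjusted *P* = 0.0529). This row was called lowered without Cx HS21 replicate 13 (-0.23, adjusted *P* = 0.0101) and in one fit of all Cx libraries (-0.17, adjusted *P* = 0.0444). A model on the same strand, Rn60_10_0892.1, spans both *G6pc* rows with 30 to 199 counts per library.

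Markers of the proximal tubule in general moved with these genes. All 11 of 11 measured markers, among them *Slc34a1* (phosphate reabsorption), *Lrp2* (the endocytic receptor megalin) and *Slc5a2* (glucose reabsorption), were lowered in the Cx at HS21, and their median log2 ratio was -0.71. Their summed level was 27582 to 30157 CPM on LS and 12874 to 20199 CPM at HS21. None of the 11 was at 0. Of 3 markers of the late proximal tubule (S3) none was called lowered. *Slc22a7*, named after its value was seen, was raised (1.70 ± 0.63, edgeR, adjusted *P* = 0.0494) and 2 were not called. Their sum was 35.2 to 138 CPM on LS and 60.8 to 211 CPM at HS21. Of the markers of other cells, 7 of 7 leukocyte, 5 of 5 tested distal tubule and collecting duct, 4 of 5 glomerulus, 3 of 4 thick ascending limb and 2 of 4 endothelial markers were raised. Summed leukocyte markers went from 817 to 967 CPM on LS to 1134 to 3167 CPM at HS21.

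Relative to the mean log2 CPM of these 11 markers within a library, *Fbp1* stood at -0.02 ± 0.06 log2 units (SD, n = 5) on LS and -0.02 ± 0.12 at HS21. For *Pck1* this difference was 2.79 ± 0.24 on LS and 2.82 ± 0.42 at HS21, and for *Pc* -0.68 ± 0.08 and -0.60 ± 0.07. The LS and HS21 ranges of the difference overlapped in all 3. *Slc37a4* went from -1.59 ± 0.05 to -1.35 ± 0.07, without overlap, so it fell less than the marker mean did. Its log2 ratio of -0.63 lay inside the range of the single markers, which was -1.49 to -0.45. *Pck2* moved from -6.11 ± 0.19 to -4.93 ± 0.19 and the first *G6pc* row from -4.69 ± 0.05 to -4.00 ± 0.10, also without overlap. The marker mean itself was 10.48 to 10.62 on LS and 9.56 to 9.93 at HS21. A gene with a steady level would therefore move up on this scale too. The share of all genes that did so was not computed.

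When libraries were scaled on the summed markers in place of TMM, the median of all genes shifted by 0.93 on the log2 scale. The ratios of *Pck1* (0.13), *Fbp1* (0.04) and *Pc* (0.12) were then above 0 and not called, with adjusted *P* between 0.19 and 0.692 (edgeR). *Slc37a4* was called raised at 0.28, the second *G6pc* row at 0.59, the first at 0.74 and *Pck2* at 1.23. Over all genes, 13020 were called under this scaling, 99.6% of them raised. The part of the tubule markers in the fall of the members was not tested.

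**Figure D2:**
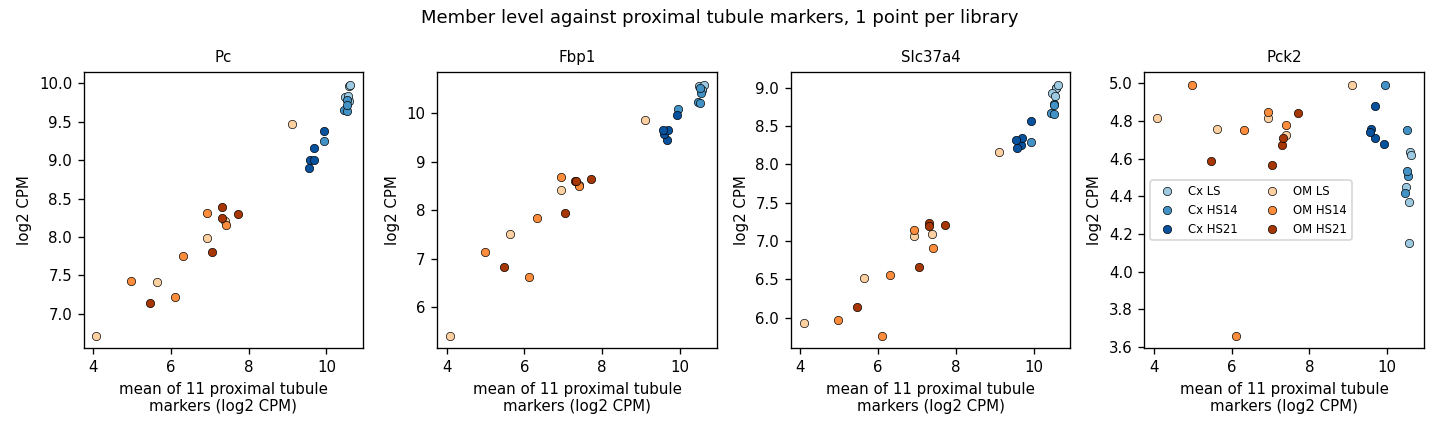
Log2 CPM of *Pc*, *Fbp1*, *Slc37a4* and *Pck2* against the mean log2 CPM of 11 proximal tubule markers, 1 point per library, coloured by group (n = 5 each). The first 3 rise with the markers across both tissues, and *Pck2* does not.

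Genes of the steps around these enzymes were read from lists of pathway genes, and each count stands beside the 39.4% of all genes called. Lactate, amino acids, glycerol and fructose enter through 22 listed genes, of which 11 were lowered, 3 raised and 8 not called in the Cx at HS21, and the median of their log2 ratios was -0.23. *Slc25a13*, the mitochondrial aspartate and glutamate exchanger, fell from 149.7 ± 10.3 to 74.9 ± 9.63 CPM (log2 ratio -1.0 ± 0.08, edgeR, adjusted *P* = 1.56e-05). *Glud1*, glutamate dehydrogenase, went from 1509.5 ± 76.8 to 829 ± 116 CPM (-0.87 ± 0.09, adjusted *P* = 5.1e-05). It was already lowered at HS14 (-0.52 ± 0.08, adjusted *P* = 0.0111). *Slc5a12*, a lactate transporter of the apical membrane, dropped from 618 ± 66.1 to 303 ± 59.9 CPM (-1.03 ± 0.13, adjusted *P* = 0.000124).

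Among the 8 genes of the reversible steps that gluconeogenesis shares with glycolysis, 5 were lowered and none raised. They included *Eno1* (-0.48 ± 0.08), enolase, and *Pgam1* (-0.29 ± 0.05), phosphoglycerate mutase. The exit of glucose through *Slc2a2*, the transporter of the basolateral membrane, was lowered as well, from 256 ± 22.1 to 156 ± 20.9 CPM (-0.71 ± 0.09, edgeR, adjusted *P* = 0.000184).

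The opposite direction prevailed among the irreversible steps of glycolysis. Of 12 tested rows for hexokinases, phosphofructokinases, their activating enzymes and pyruvate kinases, 7 were raised, 2 lowered and 3 not called, with a median log2 ratio of 0.55. *Pkm*, pyruvate kinase of non-hepatic tissues, rose from 119 ± 13.2 to 251 ± 27.1 CPM (1.08 ± 0.09, edgeR, adjusted *P* = 1.64e-05). *Hk1* (0.83 ± 0.09), a hexokinase, and *Pfkp* (0.84 ± 0.11), the platelet-type phosphofructokinase, rose too. *Hk3*, a hexokinase found mainly in leukocytes, had the highest log2 ratio of the list at 3.86 and is named here after its value was seen. Most leukocyte, distal tubule and collecting duct, thick ascending limb and glomerulus markers above rose in the same libraries. On LS the means of *Hk1*, *Pfkp* and *Pkm* were higher in the OM (178, 99.8 and 396 CPM) than in the Cx (46.2, 21.2 and 119 CPM). The part of other cells in this list was not tested.

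Of the paralogs, *G6pc3*, the glucose-6-phosphatase expressed in most tissues, was raised (0.34 ± 0.06, edgeR, adjusted *P* = 0.00145), and *Fbp2*, the muscle form of the bisphosphatase, was lowered (-0.65 ± 0.16, adjusted *P* = 0.00658) at a level of 4.67 ± 0.738 CPM on LS. *G6pc2* did not pass the filter on low counts. Among 16 rows for regulators of these genes, 6 were lowered, 1 raised and 9 not called, a share called that is near the 39.4% of all genes. The lowered rows included *Foxo1* (-0.47 ± 0.06), *Hnf4a* (-0.49 ± 0.09) and the insulin receptor *Insr* (-0.49 ± 0.06). *Ppargc1a*, a coactivator of gluconeogenic transcription, was not called (-0.13 ± 0.10, adjusted *P* = 0.348). Scaled on the tubule markers, *Glud1*, *Slc2a2*, *Fbp2*, *Foxo1*, *Hnf4a*, *Insr*, *Eno1* and *Pgam1* all had ratios above 0, between 0.07 and 0.63. *Slc25a13* (-0.096, adjusted *P* = 0.335) and *Slc5a12* (-0.081, adjusted *P* = 0.671) stayed below 0 and were no longer called. Under that scaling 18 substrate entry genes, 8 genes of the shared steps and 15 regulator rows were called raised and none of these lists held a lowered gene. The same scaling called 13020 of the 14299 genes tested, 99.6% of them raised, so these counts are not particular to the lists.

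**Figure D3:**
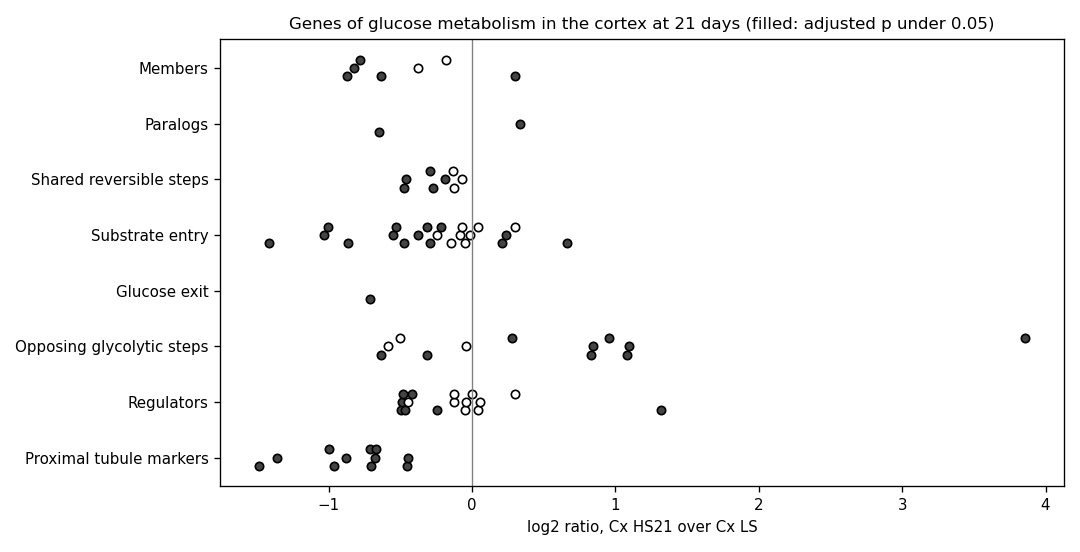
Log2 ratios of HS21 over LS in the Cx for the members, 6 lists of other genes of glucose metabolism and the proximal tubule markers, 1 point per gene, filled where the adjusted *P* was under 0.05. The members, substrate entry genes and tubule markers lie mostly below 0 and the opposing glycolytic steps mostly above it.

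At HS14, 6 of the 7 log2 ratios in the Cx lay below 0 and none passed the test. Of the 7 rows 0 were called by edgeR or by limma and 2 (*Fbp1* and *Slc37a4*) by DESeq2, while 4 had an unadjusted *P* under 0.05 in edgeR. In this comparison edgeR called 330 of the 14181 genes tested (2.33%), limma called 183 and DESeq2 called 914. The unadjusted *P* in edgeR was under 0.05 for 1284 genes with ratios above 0 and 1178 with ratios below 0. The member closest to a call in edgeR was *Slc37a4*, with 408, 441, 438, 403 and 314 CPM at HS14, all below the LS libraries. Its log2 ratio was -0.33 ± 0.08 (edgeR, adjusted *P* = 0.0549). Without Cx HS14 replicate 7 or 10 it was called, with ratios of -0.37 and -0.26 (edgeR, adjusted *P* 0.0419 and 0.0158). Over all genes these fits called 413 and 471. *Slc37a4* was the only 1 of 7 rows whose groups did not overlap, beside 5.07% of all genes tested.

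The HS14 libraries of *Pck1* held 8966, 8594, 9856, 7634 and 6517 CPM (log2 ratio -0.35 ± 0.12, edgeR, adjusted *P* = 0.169). Those of *Fbp1* held 1207, 1374, 1472, 1189 and 1095 CPM (-0.24 ± 0.07, adjusted *P* = 0.113) and those of *Pc* 809, 880.4, 797, 841 and 609 CPM (-0.27 ± 0.09, adjusted *P* = 0.139). In all 3 genes the HS14 and LS groups overlapped, and replicate 10 was the lowest HS14 library. *Pck2* read 21.3, 22.6, 23.0, 26.9 and 31.7 CPM, with replicate 10 the highest (0.20 ± 0.13, adjusted *P* = 0.469). The second *G6pc* row (-0.04 ± 0.15) and the first (-0.08 ± 0.05) lay near 0. Summed tubule markers at HS14 were 19607 CPM in replicate 10 and 26404 to 28440 CPM in the other libraries. Thick ascending limb markers summed to 2840 CPM in replicate 10 and 1569 to 1712 CPM in the others. Of the 11 tubule markers 2 were called, both lowered.

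Between HS14 and HS21 in the Cx, *Fbp1* (-0.63 ± 0.11, edgeR, adjusted *P* = 0.00768) and *Pc* (-0.52 ± 0.11, adjusted *P* = 0.014) fell further. These are 2 of 7 rows, beside 16.2% of all genes tested. *Pck1* (-0.48 ± 0.16, adjusted *P* = 0.0651) and *Slc37a4* (-0.30 ± 0.10, adjusted *P* = 0.0569) were not called by edgeR. DESeq2 called both (adjusted *P* 0.0209 and 0.0303), as did one edgeR fit of all Cx libraries (0.0361 and 0.0219), so that 4 members were called by either. Over all genes DESeq2 called 3296 and that fit 3405, where the main fit called 2330. *Pck1* and *Slc37a4* were also called without Cx HS14 replicate 10 (-0.56 and -0.38), beside 3524 of all genes. *Pck1* was also called without Cx HS21 replicate 15 (-0.64), beside 1386, and *Slc37a4* without Cx HS21 replicate 13 (-0.36), beside 2727. *Pck2* (0.10 ± 0.11) and the *G6pc* rows (-0.34 ± 0.18 for the second, -0.10 ± 0.07 for the first) were not called.

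**Figure D4:**
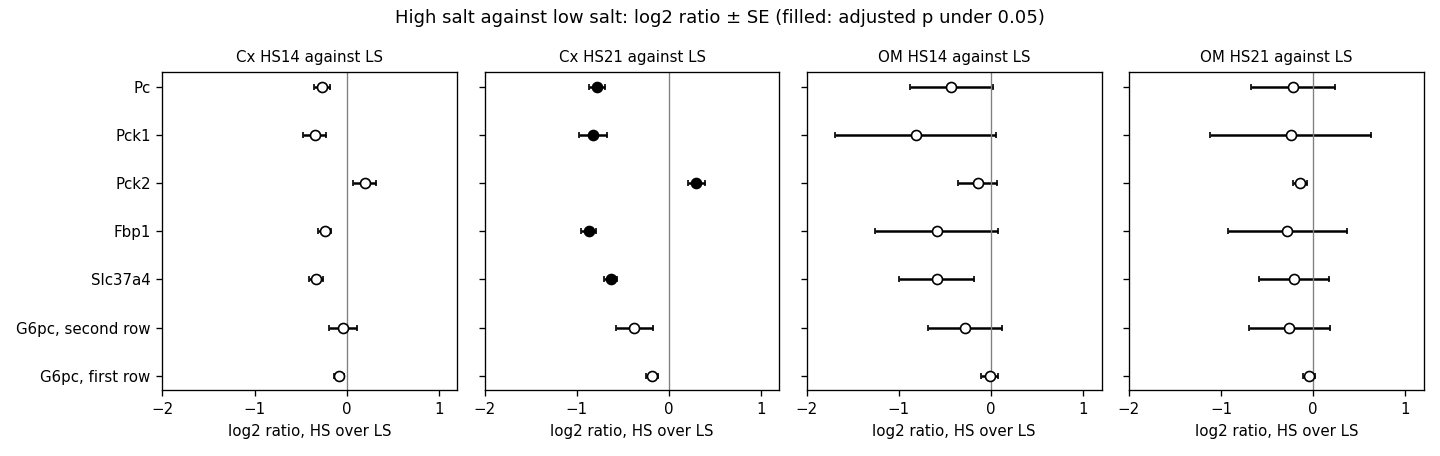
Log2 ratios ± SE of the 7 rows for HS against LS in 4 comparisons, with filled points at an adjusted *P* under 0.05 (n = 5 libraries per group). Filled points appear only in the Cx at HS21, and the error bars of the abundant members are several times wider in the OM.

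Before the diets are compared in the OM, the tissues themselves differ. On LS all 7 rows were called between OM and Cx, 6 lower in the OM and *Pck2* higher, beside 40.9% of all genes tested. All 7 had groups without overlap, beside 29.0% of all genes tested. *Pck1* was 0.075 times and the second *G6pc* row 0.0806 times its Cx level. *Fbp1* (-2.0 ± 0.60, edgeR, adjusted *P* = 0.023), *Slc37a4* (-1.83 ± 0.35) and *Pc* (-1.62 ± 0.43) were lower by less. The first *G6pc* row differed least (-0.17 ± 0.05, adjusted *P* = 0.0308). Its call was lost with the replicate number as a block (adjusted *P* = 0.0761), with no filter (0.0961) and in 4 of 10 fits that left out a library, and its sign turned with total-count scaling (0.07). *Fbp1* was not called without OM LS replicate 1 or 4 (adjusted *P* 0.0544 and 0.0516). *Pck2* stood at 0.36 ± 0.10 (adjusted *P* = 0.0166).

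Markers of the nephron segments differed between the tissues as well. Summed thick ascending limb markers were 10195 to 22016 CPM in OM LS and 1349.5 to 1963 CPM in Cx LS, and late proximal (S3) markers 948 to 6394 against 35.2 to 138 CPM. Of the 11 proximal tubule markers 9 were lower in the OM, 1 higher and 1 not called. Scaled on their sum, *Pck1* (-2.54) and the second *G6pc* row (-1.61) were still called lower in the OM. *Fbp1* (-0.51), *Pc* (0.23) and *Slc37a4* (0.18) were then not called. The median log2 ratio of all genes was 2.67 under this scaling, and 98.5% of the 13285 genes called were raised. Relative to the mean log2 CPM of the 11 markers, OM minus Cx was -0.89 for *Pck1*, without overlap. It was 0.07 for the second *G6pc* row, with overlap. For *Fbp1* (1.33), *Pc* (2.01) and *Slc37a4* (1.91) it was above 0 without overlap, so the measures place these genes differently. The marker mean itself changed by -3.93, so a gene with a steady level moves up on this scale. The share of all genes that did so was not computed.

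OM levels differed widely between libraries on the same diet. *Pck1* read 184, 2422, 634, 659.6 and 36.9 CPM in the 5 OM LS libraries, and *Fbp1* 183, 929, 368, 340.3 and 42.4 CPM. Replicate 2 was the highest in both and replicate 5 the lowest, and these 2 libraries also had the most and the least of the summed tubule markers. Replicate 2 held 277 CPM of glomerulus markers, against 125 to 173 in the other OM LS libraries. Its thick ascending limb markers summed to 10195 CPM, against 16714 to 22016. Differences between rats and between the pieces dissected cannot be told apart here. Without replicate 2 the OM LS mean of *Pck1* was 379 ± 316 CPM (SD, n = 4) in place of 787 ± 954 CPM (n = 5). The log2 ratio to Cx LS was then -4.81, and those of *Fbp1*, *Pc*, *Slc37a4* and the second *G6pc* row were -2.69, -2.21, -2.27 and -4.25. *Pck2* was even in the same libraries, at 26.9, 31.6, 26.3, 28.0 and 28.0 CPM. It made up 1.75% to 50.8% of the *Pck1* and *Pck2* transcripts per kilobase there, and the high end of that range is the library with least *Pck1*.

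In the OM no member was called at either time. Of the 7 rows 0 were called at HS14, beside 0.00694% of all genes tested, and 0 at HS21, beside 0.769%. By edgeR, DESeq2 and limma alike the count was 0, and 0 rows had an unadjusted *P* under 0.05 in edgeR. Over all genes DESeq2 called 110 at HS14 and 721 at HS21, and limma called 1 and 92. The unadjusted *P* in edgeR was under 0.05 for 617 genes above 0 and 209 below 0 at HS14. At HS21 these numbers were 1012 and 625. No row had groups without overlap at HS21, beside 3.48% of all genes tested. The OM HS14 libraries of *Pck1* held 638, 779, 223, 483 and 122 CPM and the HS21 libraries 189, 442, 624, 840.2 and 1226 CPM, both inside the LS range.

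The intervals in the OM were wide. For *Pck1* the HS21 ratio was -0.25 ± 0.87 with a 95% interval of -1.95 to 1.46, for *Fbp1* -0.28 ± 0.64 (-1.54 to 0.98), for *Pc* -0.22 ± 0.46 (-1.12 to 0.67) and for *Slc37a4* -0.21 ± 0.38 (-0.95 to 0.54). The ratios found in the Cx at HS21 lie inside each of these 4 intervals. Without OM LS replicate 2 the same ratios were 0.79, 0.38, 0.34 and 0.21, above 0 and again not called. *Pck2* (-0.15 ± 0.08, -0.30 to 0.01) had a narrower interval, which ends below the Cx ratio of 0.30, and the difference between the tissues is tested below as an interaction.

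At HS14 in the OM, ratios ran from -0.82 ± 0.87 for *Pck1* to -0.02 ± 0.09 for the first *G6pc* row. Without OM LS replicate 2 those of *Pck1* (0.22), the second *G6pc* row (0.31), *Fbp1* (0.07) and *Pc* (0.13) lay above 0 and were not called. Without OM HS14 replicate 10 that of *Pck1* was -0.56 and that of *Fbp1* -0.37. *Pck2* read 27.3, 28.7, 31.6, 26.8 and 12.5 CPM, and the last value belongs to replicate 10, the library with the fewest counts. Its ratio was -0.15 ± 0.21 with that library and 0.02 without it. Between HS14 and HS21 in the OM 0 of 7 rows were called by edgeR, beside 0% of all genes tested. DESeq2 and limma called 0 as well, beside 31 and 0 of all genes. In edgeR 0 rows had an unadjusted *P* under 0.05, beside 337 genes with ratios above 0 and 210 with ratios below 0.

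The interaction of tissue and diet asks if a diet ratio in the OM departs from that in the Cx. At HS21 0 of 7 rows were called by edgeR, beside 0.665% of the 15194 genes tested. Limma called 0 rows, beside 158 of all genes, and DESeq2 called 1 row, beside 538 of all genes. In edgeR 1 row had an unadjusted *P* under 0.05, beside 1001 genes with values above 0 and 1366 with values below 0. That row was *Pck2*, with an interaction (OM minus Cx, log2 scale) of -0.44 ± 0.12 (edgeR, adjusted *P* = 0.0984). *Pc* had an interaction of 0.56 ± 0.49 (edgeR, adjusted *P* = 0.613). Without OM LS replicate 2 it was 1.15 with an adjusted *P* of 0.0464 (edgeR). That fit called 1275 of all genes, where the fit with every library called 101. For *Pck1* the interaction was 0.58 ± 0.93 and for *Fbp1* 0.59 ± 0.68, neither called. Without OM LS replicate 2 these were 1.65 and 1.29, that of *Slc37a4* was 0.87 in place of 0.43 and that of the second *G6pc* row 0.73 in place of 0.11, again not called (adjusted *P* between 0.0722 and 0.216). At HS14 0 of 7 rows were called by edgeR, DESeq2 or limma, beside 0, 11 and 0 of all genes. In edgeR 0 rows had an unadjusted *P* under 0.05, beside 281 genes with values above 0 and 278 with values below 0.

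Across the 15 Cx libraries, genes were ranked by the Pearson correlation of their log2 CPM with each member, using the 13347 protein-coding genes whose mean was 1 CPM or more. All libraries share the 3 diet groups, so these values describe likeness over the diets and the rats together. Closest to *Fbp1* was *Elovl2* (0.983), followed by *Agxt2* and *Ehd1*. *Slc37a4* was closest to *Akap1* (0.985), *Slc22a8* and *Mob3b*, and *Pc* to *Cideb* (0.984), *Aldh8a1* and *Lrpap1*. For *Pck1* the nearest were *Sema4b* (0.945), *Cmas* and *Fgf1*, for *Pck2* *Ints10* (0.877), *Chst11* and LOC100360908. The second *G6pc* row had *Hbegf* (0.823), *Pcna* and *Ccng2*, and the first had *Dcun1d4* (0.925), *Cmtr1* and *Ppp2r1b*, so the 2 rows of 1 symbol share no gene among their nearest 3.

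Some counts depend on the annotation. The libraries are unstranded, and *Lrfn4* (69 to 424 counts per library) lies on the opposite strand inside *Pc*, so reads from the overlap cannot be assigned by strand. The unnamed model AC105645.2, inside *Slc37a4*, holds 0 to 25 counts. *Pc* itself was far more abundant, at 941 ± 62.0 CPM in Cx LS.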

How the data were processed

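Poly(A) RNA was sequenced without strand information in 30 mRNAseq libraries. The submitters' processing notes name HISAT2 2.0.5, StringTie 1.3.3b and featureCounts 1.5.0-p3. Reads were aligned by the authors to Ensembl Rnor_6.0. The counts deposited by the authors are whole numbers per gene without normalization and are the base of every level and test. The FPKM values deposited by the authors are scaled by gene length and library size and served in 1 alternative. The deposited table also holds the authors' mean of scaled counts for each group, the authors' log2 fold changes and the authors' p-values from DESeq2. These columns were not used here.

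Groups were taken from the labels. Both tissues were taken from the kidneys of 5 rats per group, so Cx and OM libraries of a group share rats. Replicate numbers run through both tissues, but no source states that an equal number is one rat. The fits without a block treat the libraries as separate samples, and *P* values measure the spread between them. Each comparison was fitted with edgeR 4.0.16 in R 4.3.3 (filterByExpr, TMM, glmQLFit, glmQLFTest, no covariates) on the 10 libraries compared, or on 20 for an interaction, with Benjamini-Hochberg adjustment over all genes tested. The SE is the log2 ratio divided by the square root of F, and 95% intervals are 1.96 SE on either side. That factor is the one of a normal distribution. With 5 libraries per group these intervals are narrower than the edgeR test implies, so they are approximate. Log2 CPM used a prior count of 2. Alternatives were RLE or total-count scaling, scaling on proximal tubule markers, no filter, DESeq2 1.42.0, limma 3.58.1 on log2(FPKM + 1) for genes with a mean FPKM of at least 0.1, one fit per tissue, the replicate number as a block, and leaving out each library. In counts simulated on the 14299 genes of Cx HS21 against LS, with 200 genes changed by a log2 ratio of 1, edgeR recovered 81% with 3.57% false calls. On the 14555 genes of the OM comparison at HS21 it recovered 40.5% with 3.57% false calls. In the same counts DESeq2 recovered 85.5% in the Cx and 58% in the OM, with 19% and 28% false calls. For the HS21 interaction edgeR recovered 40.5% with 6.9% false calls, and DESeq2 49% with 23.4%. The changed genes were drawn at random, and their change was larger than any member's at HS21. These shares therefore do not give the recovery for the members. In 60 pairs within groups no library was a copy of another, since the difference was at least 7.29 times counting noise.

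The members and lists were chosen with earlier results of these data known. All members are named. From each pathway list up to 3 called genes with the smallest adjusted *P* in the Cx at HS21 are named, with every tested paralog, *Slc2a2* and *Ppargc1a*. *Acsm2*, a listed tubule marker, was not analysed here, and 1 gene that the rule names is not reported here. Promoter windows come from RefSeq (GRCr8) and were searched for exact matches on both strands.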

Additional observations from a re-analysis of the deposited data

Results flagged for a closer look

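Among 42 groups of 5 libraries (7 rows in 6 groups), 5 held a library farther from the others than Dixon's test allows at 95%, which chance gives for about 1 group in 20. *Pck1* was at 8452 CPM in Cx HS21 replicate 15, where the nearest library held 5860.1 CPM. *Pck1* was at 2422 CPM in OM LS replicate 2, with the nearest at 659.6 CPM. The second *G6pc* row (ENSRNOG00000051171) was at 85.5 CPM in the same OM LS library, with the nearest at 32.8 CPM. It was at 39.5 CPM in OM HS14 replicate 6, with the nearest at 29.6 CPM. *Pck2* was at 12.5 CPM in OM HS14 replicate 10, the library with the fewest counts, with the nearest at 26.8 CPM. The causes were not tested.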

How the results depend on the processing

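The 4 members lowered in the Cx at HS21 were called lowered under every alternative but scaling on the proximal tubule markers, which shifts the median of all genes by 0.93 (log2). Under that scaling the Cx HS21 ratios against LS were 0.13 (*Pck1*), 0.040 (*Fbp1*), 0.12 (*Pc*), 0.28 (*Slc37a4*), 0.74 and 0.59 (first and second *G6pc* row), 0.066 (*Glud1*), 0.22 (*Slc2a2*), 0.28 (*Fbp2*), 0.46 (*Foxo1*), 0.43 (*Hnf4a*), 0.43 (*Insr*), 0.80 (*Ppargc1a*), 0.43 (*Eno1*) and 0.63 (*Pgam1*). Against HS14 they were 0.33 (*Pck1*), 0.65 and 0.46 (*G6pc* rows), 0.12 (*Fbp1*), 0.24 (*Pc*) and 0.46 (*Slc37a4*). Also under it, Cx HS14 gave 0.089 and 0.13 for the *G6pc* rows, OM HS14 0.0089 for *Pck1*, OM HS21 0.37 for *Pck1* and 0.10 for *Fbp1*, and OM against Cx 2.51 (first *G6pc* row), 0.23 (*Pc*) and 0.18 (*Slc37a4*), with 4 members called. OM against Cx, 13285 of all genes were called, 98.5% of them raised, and the median of all genes was 2.67. That median was 0.76 for Cx HS21 against HS14, 0.17 at Cx HS14, -0.40 at OM HS14 and -0.55 at OM HS21. The HS21 interactions became -1.33 and -0.94 (*G6pc* rows), -0.26 (*Pc*) and -0.54 (*Slc37a4*), with a median of -1.49 over all genes.

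Scaled by total counts, with a median shift of 0.13 at Cx HS21, 72.6% of all calls there were raised in place of 47.9%. *Ppargc1a* (0.0037), the first *G6pc* row between HS14 and HS21 (0.016) and OM against Cx (0.071) turned sign, and 1 member was called at Cx HS14 (*Slc37a4*) and 1 in the HS21 interaction (*Pck2*). Beside them 295 of all genes were called at Cx HS14 and 111 in the HS21 interaction. Limma gave OM HS21 ratios of 0.57 (*Pck1*), 0.18 (*Fbp1*) and 0.011 (*Pc*), not called. DESeq2 called 2 members at Cx HS14, 4 between HS14 and HS21 and 1 in the HS21 interaction, and one fit per tissue called 4 between HS14 and HS21. Over all genes these fits called 914, 3296, 538 and 3405 in the same order.

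With 1 library left out in turn, members called ran from 0 to 1 at Cx HS14, beside 85 to 471 of all genes. They ran from 2 to 4 between HS14 and HS21 in the Cx, beside 1029 to 3524 of all genes. In the HS21 interaction they ran from 0 to 1, beside 42 to 1275 of all genes. Ratios whose sign turned ran from -0.12 to 0.095 (second *G6pc* row, Cx HS14), at OM HS14 from -1.13 to 0.22 (*Pck1*), -0.24 to 0.022 (*Pck2*), -0.036 to 0.0067 and -0.45 to 0.31 (*G6pc* rows), -0.88 to 0.070 (*Fbp1*) and -0.65 to 0.13 (*Pc*), and at OM HS21 from -0.59 to 0.79 (*Pck1*), -0.45 to 0.33 (second *G6pc* row), -0.57 to 0.38 (*Fbp1*), -0.44 to 0.34 (*Pc*) and -0.40 to 0.21 (*Slc37a4*). The interaction of the second *G6pc* row ran from -0.078 to 0.73. All of these were uncalled throughout. OM against Cx, *Fbp1* lost its call without OM LS replicate 1 or 4 (adjusted *P* 0.0544 and 0.0516), and the first *G6pc* row in 4 of 10 fits. The causes were not tested.

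Equal replicate numbers of the 2 tissues deviated together with correlations from -0.09 to 0.498 in 15 pairs, 9 of them over 0.1, and 11 correlated best with their own number. With the replicate block 6 members were called OM against Cx, the first *G6pc* row no longer (-0.17, adjusted *P* 0.0761), and 0 in either interaction. Over all genes the block fits called 5011 OM against Cx, 94 in the HS21 interaction and 0 in the HS14 interaction. Of simulated log2 changes of 1, edgeR recovered 40.5% at OM HS21 and 81% at Cx HS21, and the parts of depth and spread in this were not separated. Changes of the size and spread seen in the members were not simulated.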
